A study of Mus musculus with 6 samples.

Results

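The angiopoietin and TIE receptor system was followed in cultured mouse lung endothelial cells (LECs) with and without ATGL, the adipose triglyceride lipase that *Pnpla2* encodes. Its genes were taken by symbol from a table of RNA-Seq values for 20409 genes. The rule names 7 genes, and 6 of them are described here, namely the ligand gene *Angpt2*, the receptor genes *Tek* and *Tie1*, the receptor phosphatase gene *Ptprb* and the transcription factor genes *Foxo1* and *Foxo3*. *Angpt1* was not analysed here. All 6 passed the filter on low values, which was a mean over the libraries of 1 CPM (read count scaled to the library total) or more.

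Angiopoietins are secreted ligands of TIE2, the receptor tyrosine kinase that *Tek* encodes, which is found mainly on endothelium and is prominent in the lung. ANGPT1 comes largely from pericytes and other mural cells and activates TIE2, which keeps vessels quiescent and their junctions tight. ANGPT2 is made by the endothelium itself, is stored in Weibel-Palade bodies and acts on TIE2 as a weak agonist or as an antagonist, depending on the context. TIE1 resembles TIE2, forms complexes with it and modulates its signal, and VE-PTP, the product of *Ptprb*, removes phosphate from TIE2. Below TIE2, the kinase AKT phosphorylates FOXO1 and FOXO3 and so keeps them out of the nucleus, and FOXO1 is known as an activator of *Angpt2*.

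The libraries came from 2 genotypes, with 3 libraries each and no treatment. Control LECs carried the floxed *Atgl* allele (*Atgl* fl/fl), and *Atgl* ECKO LECs came from mice in which the same allele was combined with a Cre transgene under the *Cdh5* (VE-cadherin) promoter, which is active in endothelium. Both kinds of cell were selected from lung with beads against CD31 and transduced with a retrovirus for the middle T antigen. Both were grown with 20% serum in an endothelial growth medium. The method of immortalization was thus shared, but differences between the derived cultures and the genotype cannot be told apart. The age of the mice is not stated. Nothing in the labels ties the libraries of a genotype to separate cultures or animals, so every p-value refers to the spread between libraries alone, and that spread may be technical.

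The depth was 55.6 to 69.0 reads for each CPM, taken from the spacing of low values. *Pnpla2* had 27.6, 26.3 and 30.1 CPM in the control and 9.97, 9.11 and 9.13 CPM in the *Atgl* ECKO libraries (log2 fold change -1.48, standard error 0.05, and exact permutation p = 0.1, the lowest possible with 3 libraries in each genotype). The 10 endothelial markers were all measured in both genotypes, with sums of 5285 to 5478 CPM in control and 5481 to 5835 CPM in *Atgl* ECKO libraries. Among them 4 were higher and 2 lower by the limma test described below, against 34.2% and 36.2% of all tested genes. The called markers ranged from *Cldn5* at 3.81 and *Robo4* at 1.68 times the control mean to *Kdr* at 85.0% and *Flt1* at 72.4% of it. Of 14 markers of fibroblasts, smooth muscle and pericytes, 11 were measured, with sums of 312 to 355 CPM in control and 366 to 436 CPM in *Atgl* ECKO libraries. These sums were mostly *Acta2*, which fell by 0.53 on the log2 scale, and *Tagln*, which rose by 0.77 as *Cnn1* did by 0.73, while *Pdgfra*, *Pdgfrb*, *Col1a2*, *Col3a1* and *Dcn* stayed under 1 CPM in every library. Sums over 6 of 10 lung epithelial markers were 18.03 to 19.03 and 42.2 to 44.6 CPM, mostly *Krt18*, with *Epcam*, *Cdh1* and *Sftpb* under 0.1 CPM. Sums over 5 of 9 leukocyte and platelet markers were 26.5 to 28.8 and 68.8 to 81.0 CPM, mostly *Cd68*. The means of *Cd68* were 18.4 and 65.4 CPM, while *Itga2b* fell from 2.28 to 1.30 CPM and *Laptm5* and *Pf4* did not pass the test. Of the 4 lymphatic markers *Prox1* and *Pdpn* were under 0.1 CPM, *Lyve1* had means of 1865 and 1827 CPM and *Flt4* fell from 146 to 102 CPM. The 4 genes of chromosome Y with a mean of at least 5 CPM, *Ddx3y*, *Eif2s3y*, *Kdm5d* and *Uty*, summed to 172 to 179 CPM in control and 1.90 to 2.29 CPM in *Atgl* ECKO libraries, and *Xist*, expressed from the inactive X chromosome, was at most 0.054 CPM in any library. This difference in Y-linked RNA and the genotype cannot be told apart. By the paper's account every experiment used male mice. The part of the cell type markers in the results was not tested, and a change in the number of cells of a type cannot be told apart from a change in RNA per cell in bulk samples.

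*Angpt2* and *Foxo3* rose in *Atgl* ECKO LECs, and *Tek*, *Tie1* and *Foxo1* fell. *Angpt2* changed most, to 2.68 times the control mean, followed by *Foxo3* at 1.72 times. *Tek* was left at 69.2%, *Foxo1* at 72.4% and *Tie1* at 79.6% of the control mean. *Ptprb* differed by 7.93%, in the higher direction, with groups that overlapped. By limma on log2(CPM + 1), with an adjusted p under 0.05 over all 12837 tested genes, 3 of the 6 members were called higher and 3 lower. The same call was made for 70.5% of all tested genes, 34.2% being higher and 36.2% lower, so an even division is also what the whole table shows. In 5 of the 6 members the groups did not overlap, as in 73.1% of all tested genes (35.3% higher and 37.8% lower). The median absolute log2 fold change was 0.49 over the members and 0.21 over all tested genes.

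**Figure D1:**
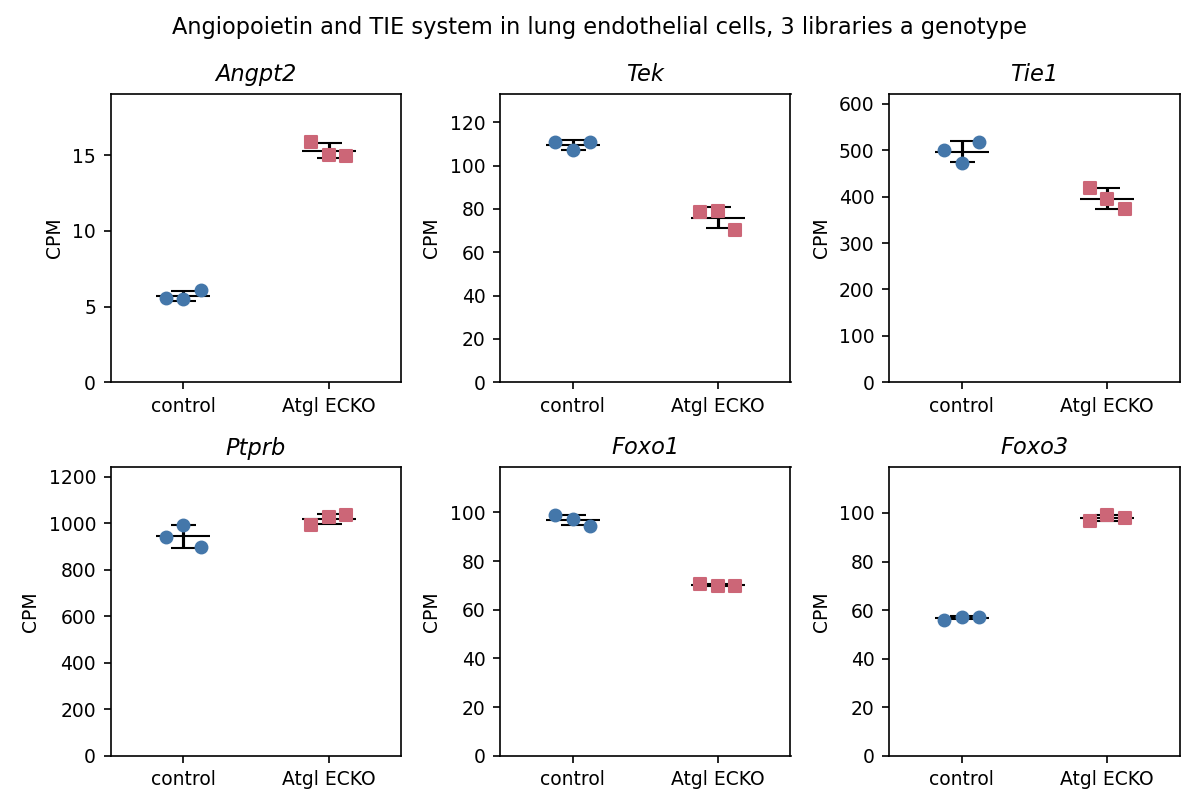
Level of each of the 6 genes in CPM (vertical axes, each from 0) in 3 control libraries (circles) and 3 *Atgl* ECKO libraries (squares), with the mean and SD in black. *Angpt2* and *Foxo3* sit higher and *Tek*, *Tie1* and *Foxo1* lower in all *Atgl* ECKO libraries, while the groups of *Ptprb* overlap.

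*Angpt2* was the member with the lowest level. Its values were 5.56, 5.50 and 6.08 CPM in control replicates 1 to 3 and 15.9, 15.1 and 14.99 CPM in *Atgl* ECKO replicates 1 to 3. Every *Atgl* ECKO library thus lay far above every control library, and neither group held a stray library. The means were 5.72 ± 0.319 and 15.3 ± 0.516 CPM (SD, n = 3 each), and the log2 fold change was 1.28 (standard error 0.06, 95% confidence interval 1.16 to 1.40, limma adjusted p = 1.19e-11). Only 3.34% of the tested genes had a larger absolute log2 fold change. These levels rested on about 306 to 403 reads in the control and 929 to 1005 reads in the *Atgl* ECKO libraries. Counting alone would give a coefficient of variation of 5.28% and 3.21% at these depths, and the observed ones were 5.58% and 3.37%, so the replicates differed about as much as counts of this size do (counting error only, since reads are not independent molecules). The added 1 CPM draws the fold change of so low a gene toward 0, and the log2 ratio of the mean CPM was 1.42.

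Of 12 angiopoietins, angiopoietin-like genes and TIE1 ligands listed, 7 were measured and 3 passed the filter. *Angpt2* was higher and 2 were lower (34.2% and 36.2% of all tested genes), and with no filter 2 were higher. *Angptl2*, an angiopoietin-like gene whose product is secreted by several cell types, had 5.27, 5.61 and 5.51 CPM in the control libraries. It had 2.31, 2.04 and 1.56 CPM in the *Atgl* ECKO libraries (log2 fold change -1.13, standard error 0.09, adjusted p = 1.16e-08). Relative to the median of the genes on its chromosome the log2 fold change of *Angptl2* was -0.90, and its log2 ratio of the mean CPM was -1.47. *Angptl4*, an inhibitor of lipoprotein lipase and a target of PPAR receptors, fell from 21.5 ± 1.08 to 16.03 ± 1.43 CPM (SD, n = 3 each), a log2 fold change of -0.41 (adjusted p = 1.60e-05). For both genes the groups did not overlap, as in 73.1% of all tested genes, and the direction was opposite to that of *Angpt2*. *Angptl1*, *Angptl6*, *Angptl8* and *Lect2* were below the filter, and no library exceeded 0.997 CPM for any of them. *Lect2* had the highest level of these, with means of 0.676 and 0.929 CPM.

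The receptor genes *Tek* and *Tie1* lie on the same chromosome, 4, and both fell. *Tek* had 111, 107 and 111 CPM in control replicates 1 to 3 and 78.5, 78.8 and 70.4 CPM in *Atgl* ECKO replicates 1 to 3. The control libraries lay close together, and *Atgl* ECKO replicate 3 was the lowest of all. The log2 fold change was -0.53 (standard error 0.04, 95% confidence interval -0.61 to -0.44, limma adjusted p = 1.28e-08). *Tie1* had 500.1, 473 and 519 CPM in control and 418, 395 and 374 CPM in *Atgl* ECKO libraries, again without overlap and again with *Atgl* ECKO replicate 3 at the bottom. Its log2 fold change was -0.33 (standard error 0.04, 95% confidence interval -0.42 to -0.24, limma adjusted p = 3.70e-06). The median log2 fold change of the genes on chromosome 4 was -0.10, and both receptors lay below it. Whole chromosomes differed in this median, which ran from -0.23 on chromosome 2 to 0.45 on chromosome 14. It was 0.41 on chromosome 19, 0.36 on chromosome 12 and 0.26 on chromosome 16, and -4.43 over 4 genes of chromosome Y. The source of these shifts was not tested. Every gene was also taken relative to its chromosome's median, an alternative added once the data had been seen. There *Tek* had a log2 fold change of -0.42 (limma adjusted p = 2.17e-07) and *Tie1* one of -0.23 (limma adjusted p = 0.000204). The highest adjusted p for *Tie1* over all alternatives was 0.0126, in the fit without moderation of the variances.

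The fold change of *Tie1* was smaller than that of *Tek*. The ratio of *Tie1* to *Tek*, taken within each library on CPM + 1, was 4.47, 4.39 and 4.65 in control and 5.28, 4.96 and 5.25 in *Atgl* ECKO libraries. Every *Atgl* ECKO value was thus above every control value, and the log2 ratio differed by 0.20 (two-sided exact permutation p = 0.1, the lowest possible). The library with the lowest *Tek* and *Tie1*, *Atgl* ECKO replicate 3, was not set apart in this ratio.

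The promoters of these receptor genes are shown because the genes fell together and because both are known targets of ETS family factors. RefSeq sequences (GRCm38.p6, 250 bases before to 50 bases after the annotated start, given 5′ to 3′ on the gene's strand) were matched by symbol for 4 of the 7 genes of the rule, *Tek*, *Tie1*, *Foxo1* and *Foxo3*. Capitals mark the ETS core GGAA or, on the other strand, TTCC. The *Tek* promoter is chr4:94739039-94739338 on the plus strand, and the *Tie1* promoter is chr4:118489800-118490099 on the minus strand.
Tek: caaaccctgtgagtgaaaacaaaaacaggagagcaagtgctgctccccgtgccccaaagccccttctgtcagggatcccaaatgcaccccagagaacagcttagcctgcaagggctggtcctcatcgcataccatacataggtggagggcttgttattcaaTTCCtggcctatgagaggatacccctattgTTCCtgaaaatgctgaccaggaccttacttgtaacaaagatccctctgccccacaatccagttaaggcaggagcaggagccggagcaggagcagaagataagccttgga
Tie1: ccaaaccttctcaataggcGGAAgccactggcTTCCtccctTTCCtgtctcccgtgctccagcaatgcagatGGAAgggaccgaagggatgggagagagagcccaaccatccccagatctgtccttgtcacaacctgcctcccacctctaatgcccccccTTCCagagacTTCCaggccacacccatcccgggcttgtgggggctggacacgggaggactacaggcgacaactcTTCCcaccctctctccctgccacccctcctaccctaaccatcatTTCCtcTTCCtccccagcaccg

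The ETS core occurred 2 times in the *Tek* and 9 times in the *Tie1* promoter. Most promoters hold it, 96.0% of all 32851 in the table with a median of 3 matches, and 0.636% had more than 9. The FOXO core, TGTTTAC or GTAAACA on the other strand, occurred in 3.65% of all promoters and in none of the 4 matched here. A match is a description of letters and not of binding.

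*Ptprb*, the gene of the phosphatase that acts on TIE2, was called higher by a small margin, by a log2 fold change of 0.11 that turned to -0.084 with chromosome medians removed. It had 939, 994 and 897 CPM in control and 992, 1027 and 1035 CPM in *Atgl* ECKO libraries. Control replicate 2 lay above *Atgl* ECKO replicate 1, so the groups overlapped. The call (standard error 0.04, 95% confidence interval 0.03 to 0.19, limma adjusted p = 0.0157) was lost in 7 of 17 alternatives. Among them were leaving out control replicate 3 (log2 fold change 0.075, adjusted p = 0.0844), *Atgl* ECKO replicate 2 (0.10, adjusted p = 0.0608) or *Atgl* ECKO replicate 3 (0.099, adjusted p = 0.0520). The highest value, 0.15, was that without control replicate 2. The median of chromosome 10, where *Ptprb* lies, was 0.19, and the exact permutation p over the libraries was 0.2. Of the tested genes, 71.4% had a larger absolute log2 fold change.

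**Figure D2:**
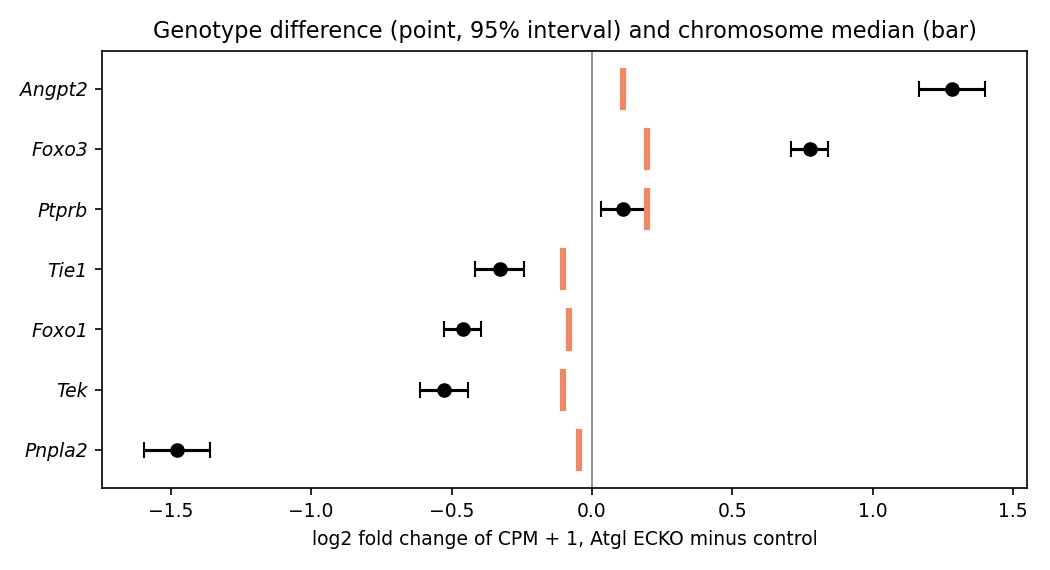
Log2 fold change of CPM + 1, *Atgl* ECKO minus control (horizontal axis), of the 6 genes and *Pnpla2*, with 95% confidence intervals, and in orange the median log2 fold change of the genes on the same chromosome. The interval of *Ptprb*, 0.03 to 0.19, ends just below the median of chromosome 10, and the other intervals lie apart from their medians.

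Relative to the receptor it acts on, *Ptprb* was higher in every *Atgl* ECKO library. The ratio of *Ptprb* to *Tek* was 8.39, 9.21 and 8.03 in control and 12.5, 12.9 and 14.5 in *Atgl* ECKO libraries, a log2 difference of 0.64 (two-sided exact permutation p = 0.1, the lowest possible). *Tek* supplied most of this difference, with a log2 fold change of -0.53 against 0.11 for *Ptprb*. The genes *Ptprb* and *Tek* lie on chromosomes 10 and 4, with medians of 0.19 and -0.10. With chromosome medians removed *Ptprb* was at -0.084 and *Tek* at -0.42, and the ratio was not run in that setting. Of the 8 sheddases and phosphatases of the same class listed, 6 were measured and 5 tested, with 3 higher and 1 lower (34.2% and 36.2% of all tested genes), or 2 higher and 1 lower without *Ptprb*. *Ptprj*, a receptor phosphatase of the same class as *Ptprb*, rose from 9.49 ± 0.430 to 17.4 ± 0.662 CPM (SD, n = 3 each), a log2 fold change of 0.81 (adjusted p = 1.20e-09). *Adam10*, a membrane protease that cuts the outer part off many receptors, had 438, 423 and 428 CPM in control and 272, 268 and 253 CPM in *Atgl* ECKO libraries (log2 fold change -0.70, adjusted p = 2.48e-11). Its relative *Adam17* did not pass the test, at 0.018 on the log2 scale (adjusted p = 0.612), and was called lower, at -0.34, with chromosome medians removed. The matrix metalloproteinase gene *Mmp14* had a log2 fold change of 0.18 that turned to -0.27 with chromosome medians removed, where 1 gene of this list was higher and 3 lower.

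**Figure D3:**
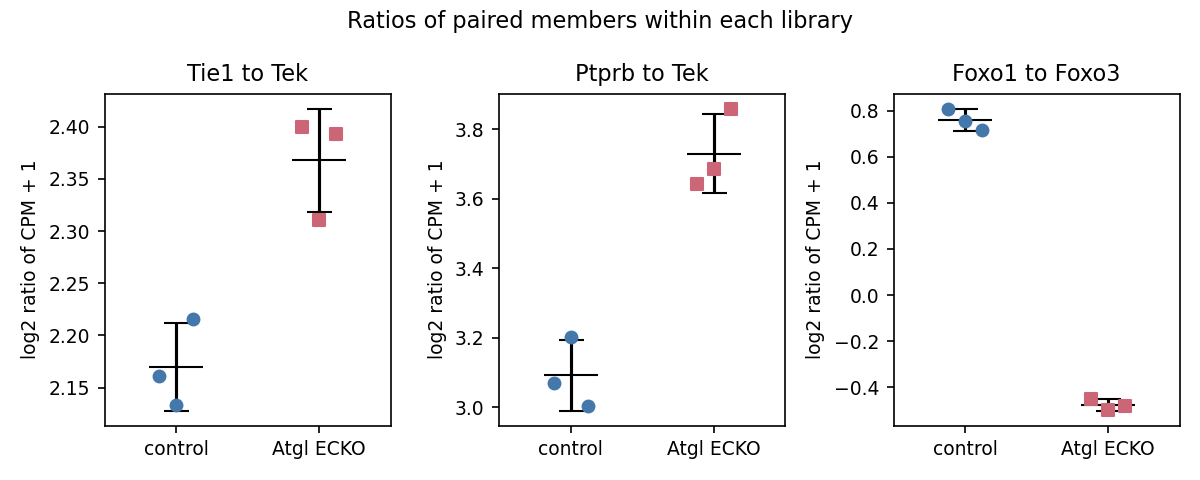
Log2 ratio of CPM + 1 for *Tie1* to *Tek*, *Ptprb* to *Tek* and *Foxo1* to *Foxo3* (vertical axes, not from 0) in 3 control (circles) and 3 *Atgl* ECKO libraries (squares), with the mean and SD in black. No groups overlap, and *Foxo1* to *Foxo3* changes sign, from 0.76 to -0.48. Chromosome medians were not removed.

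*Foxo1* and *Foxo3*, which encode closely related forkhead factors, moved in opposite directions. *Foxo1* had 98.9, 97.2 and 94.5 CPM in control and 70.7, 69.9 and 69.9 CPM in *Atgl* ECKO libraries. *Foxo3* had 56.0, 57.2 and 57.2 CPM in control and 96.8, 99.1 and 98.0 CPM in *Atgl* ECKO libraries. Within each genotype the replicates of both genes lay close together, with coefficients of variation of 0.622% to 2.30%, and the groups were far apart. The log2 fold change was -0.46 for *Foxo1* (standard error 0.03, 95% confidence interval -0.53 to -0.39, limma adjusted p = 2.42e-09) and 0.78 for *Foxo3* (standard error 0.03, 95% confidence interval 0.71 to 0.84, limma adjusted p = 3.39e-12). *Foxo3* lies on chromosome 10, whose median was 0.19, and had a log2 fold change of 0.58 with chromosome medians removed. *Foxo1* lies on chromosome 3, whose median was -0.081, and had one of -0.38 in that setting.

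The order of both FOXO genes was therefore exchanged between the genotypes. The ratio of *Foxo1* to *Foxo3* was 1.75, 1.69 and 1.64 in control and 0.733, 0.708 and 0.717 in *Atgl* ECKO libraries, a log2 difference of -1.23 (two-sided exact permutation p = 0.1, the lowest possible). Per kilobase of exon, *Foxo1* made up 49.4% ± 0.589 of the sum of *Foxo1*, *Foxo3* and *Foxo4* in control and 31.7% ± 0.325 in *Atgl* ECKO LECs (SD, n = 3 each). The share of *Foxo3* was 33.2% ± 0.789 and 50.6% ± 0.636, and that of *Foxo4* was 17.5% ± 0.572 and 17.7% ± 0.663. The sum itself was 22.6 ± 0.282 and 25.6 ± 0.239 CPM per kilobase, so the exchange came with a small difference in the total.

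Taken per kilobase of exon, the levels of the members can also be ordered within a genotype. In control LECs the order was *Tie1* (101 CPM per kilobase), *Ptprb* (70.7), *Tek* (23.3), *Foxo1* (11.2), *Foxo3* (7.50) and *Angpt2* (1.55), and no neighbours overlapped. In *Atgl* ECKO LECs *Tie1* (80.5) and *Ptprb* (76.4) overlapped between libraries, *Tek* (16.1) came next, and *Foxo3* (12.9) stood above *Foxo1* (8.10). *Angpt2*, at 4.15 CPM per kilobase, remained the lowest. The lengths are those of all annotated exons of a gene, so use of shorter isoforms would change these levels.

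Of 21 signal adaptors and kinases below TIE2 listed, 18 were tested, of which 4 were higher and 7 lower (34.2% and 36.2% of all tested genes), with a median log2 fold change of -0.055 against -0.0090 over all tested genes. *Akt1*, the gene of the kinase that phosphorylates FOXO factors, had a log2 fold change of 0.18 that turned to -0.18 with chromosome medians removed. The adaptor gene *Dok1*, a relative of the TIE2 partner *Dok2*, rose by 0.47 on the log2 scale. Among the lower genes, the adaptor gene *Shc1* fell by 0.54, the phosphatase gene *Ptpn11* (SHP2) by 0.32 and the RAS inhibitor gene *Rasa1* by 0.26 on the log2 scale (-0.14 for *Rasa1* with chromosome medians removed). The PI3 kinase genes *Pik3cb* (log2 fold change 0.0029) and *Pik3r1* (0.021) did not pass the test.

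Of 17 FOXO factors and their modifiers listed, 16 were tested, 6 were higher and 8 lower (34.2% and 36.2% of all tested genes). *Sgk1*, a kinase that can phosphorylate FOXO factors at AKT sites, had 292, 302 and 300 CPM in control and 186, 188.9 and 192 CPM in *Atgl* ECKO libraries (log2 fold change -0.65, adjusted p = 1.49e-11). *Ywhab*, a gene of the 14-3-3 family that holds phosphorylated FOXO in the cytoplasm, fell by 0.50 on the log2 scale (adjusted p = 7.09e-10) and was at -0.27 with chromosome medians removed. The deubiquitinase gene *Usp7* rose by 0.31 and the acetyltransferase gene *Crebbp* by 0.35 on the log2 scale, both on chromosome 16, and with chromosome medians removed neither passed the test (0.051, adjusted p = 0.137, and 0.089, adjusted p = 0.203).

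Of 26 genes listed as known FOXO targets 24 were tested. Among these, 13 were higher and 5 lower (34.2% and 36.2% of all tested genes), 6 had no call, and the median log2 fold change was 0.19. Without *Angpt2*, which is on this list, 12 of 23 were higher and 5 lower, with a median of 0.18. *Cited2*, a coregulator that opposes HIF1 activity, had 17.4, 18.9 and 18.3 CPM in control and 61.8, 66.6 and 72.0 CPM in *Atgl* ECKO libraries (log2 fold change 1.82, standard error 0.05, adjusted p = 5.90e-14). The repressor gene *Bcl6* rose by 0.89 on the log2 scale (adjusted p = 1.39e-09). Lower were the insulin receptor gene *Insr* by 0.62, the cyclin gene *Ccng2* by 0.52 and *Cat*, which encodes catalase, by 0.39 on the log2 scale (-0.16 for *Cat* with chromosome medians removed). The FOXO targets *Irs2* (log2 fold change -0.039) and *Fbxw7* (0.028) did not pass the test.

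**Figure D4:**
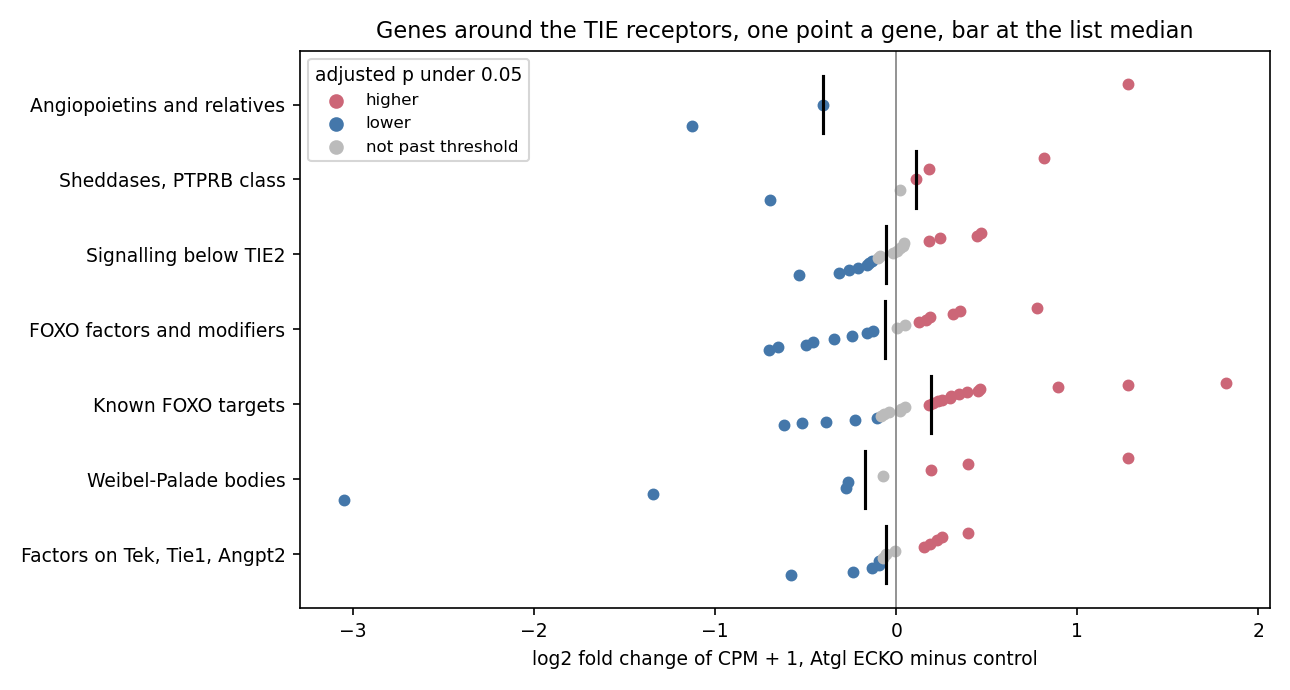
Log2 fold change of CPM + 1, *Atgl* ECKO minus control (horizontal axis), of the tested genes of 7 lists (rows), with 1 point a gene, colored by its call at an adjusted p under 0.05, and a black bar at the list median. *Angpt2* (1.28) stands on 3 lists and *Myrip* (-3.05) at the far left of the Weibel-Palade body genes, and each list holds higher and lower genes.

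*Angpt2* rose while *Vwf*, whose product is the main cargo of the same storage granule, fell. *Vwf* had 152, 152 and 140.9 CPM in control and 58.8, 57.8 and 56.4 CPM in *Atgl* ECKO libraries (log2 fold change -1.35, standard error 0.04). Of 9 Weibel-Palade body genes listed, 8 were tested, 3 were higher and 4 lower (34.2% and 36.2% of all tested genes), or 2 and 4 of 7 without *Angpt2*. *Myrip*, a linker of the granules to actin, had 8.50, 7.26 and 7.92 CPM in control and 0.0793, 0.0163 and 0.122 CPM in *Atgl* ECKO libraries (adjusted p = 2.89e-14). The *Atgl* ECKO values of *Myrip* are those of only a few reads in each library, and its log2 fold change on the scale with 1 CPM added was -3.05, against -6.76 for the ratio of mean CPM. *Rab27a*, the GTPase of the granules to which the *Myrip* product binds, rose by 0.39 on the log2 scale, and *Selp*, which encodes the stored P-selectin, fell by 0.27. The granule membrane gene *Cd63* had a log2 fold change of 0.19. With chromosome medians removed it was at -0.0051 and did not pass the test (limma adjusted p = 0.886).

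Transcription factors known to act on *Tek*, *Tie1* or *Angpt2* included 5 higher and 5 lower genes of 13 tested (34.2% and 36.2% of all tested genes), with a median log2 fold change of -0.057, against 1 higher and 6 lower with chromosome medians removed. *Epas1*, which encodes HIF2α, fell by 0.58 on the log2 scale (adjusted p = 8.53e-11), from 302 ± 5.20 to 201 ± 4.73 CPM (SD, n = 3 each), and *Nfatc1* by 0.24 (-0.11 with chromosome medians removed). *Elf1*, *Hif1a* and *Erg* had log2 fold changes of 0.40, 0.22 and 0.19, which turned to -0.049, -0.14 and -0.075 with chromosome medians removed, and *Ets1* had one of -0.098 that turned to 0.0047. In that setting *Elf1* (limma adjusted p = 0.201) and *Ets1* (limma adjusted p = 0.902) did not pass the test, while *Hif1a* and *Erg* were called lower. The signs of these 4 genes thus depended on that setting, and those of *Epas1* and *Nfatc1* did not.

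Genes with the most similar profile were sought among 8565 genes whose mean was 10 CPM or more, by the root mean square difference of log2(CPM + 1) values centred on each gene's mean over the 6 libraries. The libraries share the genotype contrast, so this likeness is mostly that of the genotype difference. The closest to *Angpt2* were *Pcdhgb6* (0.032 log2 units), *Unc119b* (0.036) and the forkhead factor gene *Foxf1* (0.039), which also lies on chromosome 8 and rose from 50.6 to 128 CPM. *Pcdhgb6* shares exons with its protocadherin cluster, so its reads are uncertain. The closest to *Tek* were *Jarid2* (0.013), *Fabp4* (0.018) and *Gstp1* (0.026), the last with a close paralog that can share its reads. The closest to *Tie1* was *Csrp2* (0.016), to *Ptprb* it was *Taf1d* (0.014), and to *Foxo1* it was *Hnrnph1* (0.013). *Foxo3* was matched by *Mdm2* (0.015), *Tnfrsf10b* (0.016) and *Cipc* (0.023), and the log2 fold changes of these genes were 0.77, 0.78 and 0.78.

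**Figure D5:**
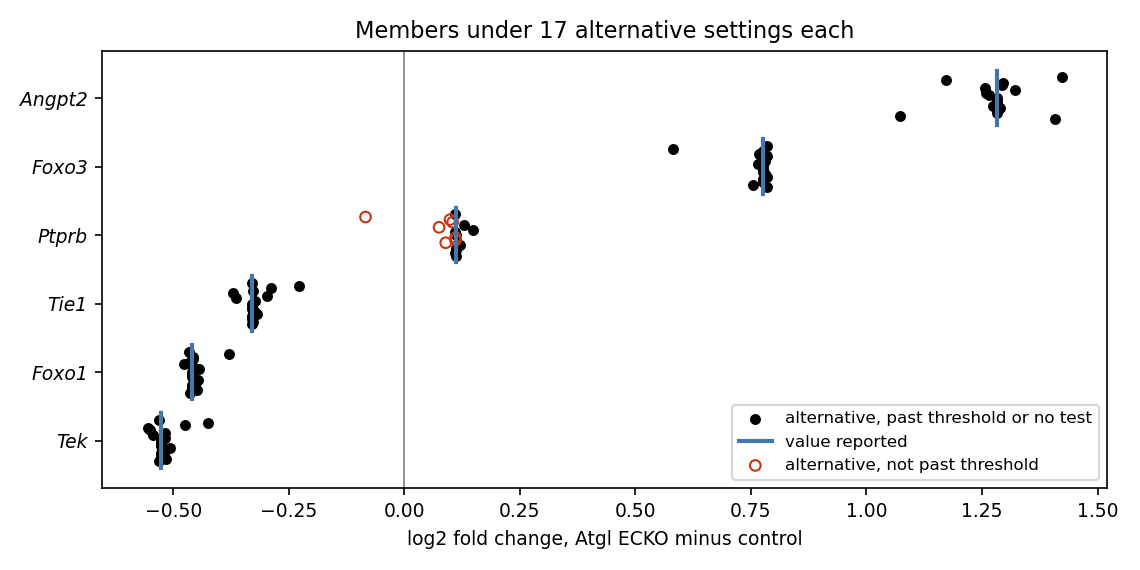
Log2 fold change, *Atgl* ECKO minus control (horizontal axis), of the 6 genes as reported (blue bar) and under 17 alternatives each (points, with open red points where the adjusted p was 0.05 or more). Open points occur for *Ptprb* alone, and 1 of them lies below 0, at -0.084.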

How the data were processed

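RNA-Seq values of 6 LEC libraries were used, 3 control and 3 *Atgl* ECKO. The CPM values were made by the authors in Partek Flow, by STAR alignment and Partek E/M quantification, and carry an offset of 0.0001. The build named is hg19, a human one, although the symbols are those of mouse genes. Tool versions were not given in the sources used here. Of 20430 lines, 21 with a date in place of a symbol were left out, and 1 stray column and the deposited z-scores were not used. In low values (under 20 reads) 79.0% to 79.8% were whole reads within 0.05, so no count test was run.

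The genotypes were compared on log2(CPM + 1) by limma 3.58.1 (R 4.3.3; lmFit, then eBayes with trend), in 12837 genes whose mean was 1 CPM or more, with Benjamini-Hochberg adjustment over all of them and calls at 0.05. Ratios were tested with exact permutation (scipy 1.17.1). The procedure was tested on simulated data with independent noise and few changed genes. That cannot show how it behaves where most genes are called, as here. Chromosomes and exon lengths were taken by symbol from GENCODE M21, and promoters from RefSeq (GRCm38.p6).

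The members and lists were chosen with earlier results of these data known. From each list at most 3 higher and 3 lower genes with the smallest adjusted p were named, plus some below the filter or not passing, and for each member its closest genes by profile. The result of 1 listed gene is not reported here. *Foxo4*, the Y-linked genes, *Xist* and the ETS core were added after values were seen. Alternatives were pseudocounts of 0.1 and 3 CPM, no filter or one at 5 CPM, median ratio and quantile scaling, no trend, no moderation, a replicate block, leaving out each library, the ratio of mean CPM and, chosen after seeing the data, removal of the median of each chromosome over genes of at least 5 CPM.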

Additional observations from a re-analysis of the deposited data

How the results depend on the processing

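*Tek*, *Tie1*, *Foxo1*, *Foxo3* and *Angpt2* kept their direction under all 17 alternatives each, and their call under every alternative with a test, *Angpt2* with a log2 ratio of mean CPM of 1.42 in place of 1.28 (-1.57 for *Pnpla2*). The call for *Ptprb* was lost with quantile normalization (0.090, adjusted p = 0.0514), without the trend (0.11, adjusted p = 0.0562) and without moderation (0.11, adjusted p = 0.106). Leaving out 1 library each gave *Ptprb* values of 0.075 to 0.15, and the call was lost in 3 of the 6 cases. With chromosome medians removed *Ptprb* was at -0.084 (adjusted p = 0.0625), *Mmp14* at -0.27, *Akt1* at -0.18, *Hif1a* at -0.14, *Erg* at -0.075, *Elf1* at -0.049, *Cd63* at -0.0051 and *Ets1* at 0.0047. Of these genes *Mmp14* and *Elf1* lie on chromosome 14, *Akt1* and *Hif1a* on chromosome 12 and *Erg* on chromosome 16. Like *Ptprb*, the genes *Elf1*, *Cd63* and *Ets1* did not pass the test in that setting. The number of genes called was 7715 to 10397 over all alternatives, against 9045.

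The replicate numbers were not treated as pairs. Deviations of libraries with the same number correlated at 0.086, 0.091 and -0.15 over genes, and not every library correlated best with its own number. So few correlations, from 3 libraries a genotype, cannot exclude a pairing. With the number as a replicate block 8969 genes were called, and no member's call changed. The *Angpt2* to *Angpt1* ratio was not run. With 3 libraries a genotype no exact test on a ratio can pass 0.05. Depth limits *Angpt2* most among the members.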
